A study of Mus musculus with 45 samples.

Results

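The transforming growth factor beta (TGF-β) pathway was followed through 9 genes, chosen by symbol: the ligands Tgfb1, Tgfb2 and Tgfb3, the receptors Tgfbr1 and Tgfbr2, the signal carriers Smad2, Smad3 and Smad4, and the inhibitor Smad7. All 9 were found among the 15897 genes of the deposited table. They were measured by RNA sequencing of poly(A) RNA in the hippocampus of 45 female C57Bl/6J mice, which ate a typical western diet (TWD, 21% w/w fat) or standard chow (STD, 5% w/w fat) from the age of 7 months until sacrifice at 13 months. A+ mice carried APPswe/PS1dE9, a transgene for amyloid precursor protein and presenilin under the prion protein promoter, T+ mice carried human tau P301L under the CaMKII promoter, A+T+ mice carried both, and AwTw mice were wild-type littermates. There were 6 mice in each of the 8 genotype and diet groups, except for 5 in A+Tw/STD and 4 in A+T+/STD, and a group is named by its genotype and diet.

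TGF-β is secreted in a latent complex and is released from it by integrins, proteases and thrombospondin. The freed ligand binds TGFBR2, which phosphorylates TGFBR1. TGFBR1 then phosphorylates SMAD2 and SMAD3, which enter the nucleus with SMAD4 and change transcription, and SMAD7 is induced by the pathway and shuts the receptor down. In the brain, TGF-β1 is largely made by microglia and is required for their resting gene programme, whereas TGF-β2 is made mainly by neurons and astrocytes.

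All levels are variance-stabilized values on a log2-like scale, from which batch differences had been removed, and a difference of 1 is close to a 2-fold change for a gene with many reads and smaller than the true change for a gene with few. Levels are compared between mice for the same gene and not between genes, because the values are not per length. The exact depth of sequencing in each mouse is not in the values. Differences were tested with limma with batch as a covariate, with a threshold of 0.05 on the Benjamini-Hochberg adjusted p over all 15897 genes, and each is given ± its standard error. In bulk tissue, fewer cells of a type and less RNA per cell cannot be told apart.

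As a check of the labels, App was at least 15.05 in all 21 A+ mice and at most 14.86 in all 24 Aw mice, and the mouse Mapt gene differed by 0.06 ± 0.052 between T+ and Tw mice (limma, adjusted p = 0.999). The mouse gene does not measure the human tau transgene, so the T+ label was not checked. Trem2, a microglial receptor, did not overlap between A+ mice (8.77 to 10.07) and Aw mice (6.90 to 8.58). The markers of 8 cell types were all among the genes of the table, and their lowest value in any mouse was 4.35. Without read counts, a value of that size does not show that the gene was detected in that mouse. The mice A+T+/TWD replicate 1 and AwTw/TWD replicate 3 stood apart, with median correlations of 0.941 and 0.944 with the other mice, and both ate TWD.

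Tgfb1 and Tgfbr2 were higher in A+ than in Aw mice, and the remaining 7 genes were not called in that comparison. Their promoters are shown here because these 2 genes carry the A genotype difference. Each run is the 250 bases before the RefSeq start (GRCm38.p6), 5′ to 3′ on the gene's strand, and capitals mark the matches of the motifs searched on both strands.
Tgfb1 promoter, chr7:25686752-25687001, + strand: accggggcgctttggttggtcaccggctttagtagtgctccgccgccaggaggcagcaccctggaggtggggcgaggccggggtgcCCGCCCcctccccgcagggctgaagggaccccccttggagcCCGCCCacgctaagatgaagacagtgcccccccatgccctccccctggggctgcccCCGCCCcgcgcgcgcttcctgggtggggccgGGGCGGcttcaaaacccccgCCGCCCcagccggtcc
Tgfbr2 promoter, chr9:116175364-116175613, - strand: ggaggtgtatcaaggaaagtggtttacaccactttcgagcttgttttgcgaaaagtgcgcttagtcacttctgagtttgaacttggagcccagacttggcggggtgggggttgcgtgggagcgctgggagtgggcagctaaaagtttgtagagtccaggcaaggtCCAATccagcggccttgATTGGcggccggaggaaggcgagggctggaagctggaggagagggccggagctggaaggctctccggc
The Tgfb1 run holds 5 matches of the GC box (GGGCGG), a motif present in 32.7% of 32851 promoter runs of this length. The Tgfbr2 run holds 2 matches of the CCAAT box (CCAAT), present in 33.9% of them. Neither holds a match of the ETS core (GGAAGT, 19.7% of promoters), the AP-1 site (TGACTCA, 4.46%) or the palindromic Smad-binding element (GTCTAGAC, 0.167%). GC content is 75.2% in the Tgfb1 run and 58.4% in the Tgfbr2 run. Of the 9 genes, 5 had an entry in the promoter table.

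Tgfb1, the ligand of the family that microglia make, lies on chromosome 7 at 25687002 to 25705077 on the + strand (GRCm38, GENCODE M21). On STD its levels in AwTw mice ran from 6.59 through a median of 6.98 to 7.38, and in AwT+ mice from 6.83 through 7.03 to 7.23. The 5 A+Tw/STD mice had 7.71, 7.92, 7.36, 7.72 and 8.10, and the 4 A+T+/STD mice had 7.76, 8.09, 7.78 and 7.73. On STD, every A+T+ mouse was thus above every Aw mouse, while the lowest A+Tw mouse lay just below the highest AwTw mouse.

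On TWD the Tgfb1 levels of AwTw mice ran from 6.76 through a median of 7.29 to 7.76, and those of AwT+ mice from 6.93 through 7.42 to 7.70. Those of A+Tw mice ran from 7.61 through 7.72 to 7.92 and those of A+T+ mice from 7.53 through 7.70 to 8.27. Here the A+ and Aw ranges overlapped, with the upper Aw mice among the A+ mice.

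Over both diets, Tgfb1 was 7.79 ± 0.233 (SD, n = 21) in A+ mice and 7.17 ± 0.327 (SD, n = 24) in Aw mice, a difference of 0.63 ± 0.082 (limma, adjusted p = 1.84e-07). All 21 A+ mice were above the Aw median of 7.11, and 11 of them were above the highest Aw mouse. In that comparison 3.78% of all genes were called and 3.10% were called as higher, against 2 of the 9 pathway genes, both higher. The difference was 0.59 in batch 0 alone (adjusted p = 0.00207) and 0.72 in batch 1 alone (adjusted p = 0.000476), so it was present within each batch.

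**Figure D1:**
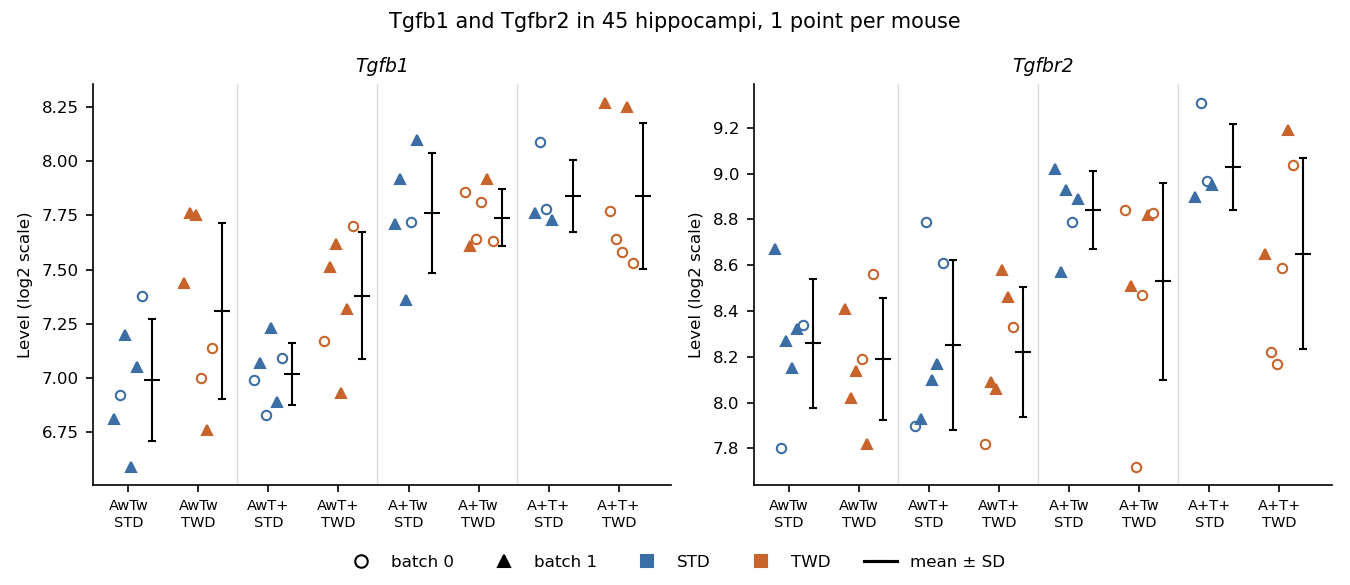
Levels of Tgfb1 (left) and Tgfbr2 (right) on the log2-like scale in the 8 genotype and diet groups, with 1 point per mouse (open circles batch 0, filled triangles batch 1, blue STD, orange TWD) and the mean ± SD beside each group. All 21 A+ mice lie above the Aw median of 7.11 for Tgfb1, and 19 of 21 lie above the Aw median of 8.18 for Tgfbr2.

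Tgfbr2, the receptor that binds the ligand first, lies on chromosome 9 at 116084293 to 116175360 on the - strand. Its levels on STD ran from 7.80 through a median of 8.30 to 8.67 in AwTw mice and from 7.90 through 8.13 to 8.79 in AwT+ mice. The A+Tw/STD mice had 9.02, 8.57, 8.93, 8.79 and 8.89, and the A+T+/STD mice had 8.90, 9.31, 8.97 and 8.95. As for Tgfb1, the A+T+/STD mice did not overlap with any Aw mouse on STD.

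On TWD, Tgfbr2 ran from 7.82 through a median of 8.17 to 8.56 in AwTw and from 7.82 through 8.21 to 8.58 in AwT+ mice. Among amyloid mice it ran from 7.72 through 8.67 to 8.84 in the A+Tw/TWD group and from 8.17 through 8.62 to 9.19 in the A+T+/TWD group. The A+ ranges were wider on TWD, and the lowest Tgfbr2 level of all 45 mice belonged to an A+Tw/TWD mouse. Over both diets the means were 8.73 ± 0.370 (SD, n = 21) in A+ and 8.23 ± 0.284 (SD, n = 24) in Aw mice, a difference of 0.53 ± 0.095 (limma, adjusted p = 0.00012). Of the 21 A+ mice, 12 were above the highest Aw mouse. The difference was 0.63 in batch 1 alone (adjusted p = 0.000177) and 0.45 in batch 0 alone, where it missed the threshold (adjusted p = 0.318).

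The other ligands and receptor differed little between A+ and Aw mice. Tgfb2 differed by -0.02 ± 0.067 (95% interval -0.16 to 0.11), Tgfb3 by -0.03 ± 0.047 (-0.12 to 0.07) and Tgfbr1 by 0.04 ± 0.172 (-0.31 to 0.39). Among the signal carriers the differences were -0.04 for Smad2, -0.02 for Smad3 and -0.11 for Smad4, and it was 0.07 for the inhibitor Smad7, with adjusted p from 0.525 to 0.909 (limma). The interval of Tgfbr1 is the widest of the 9, so a difference of the size seen for Tgfb1 is outside it but a smaller one is not.

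**Figure D2:**
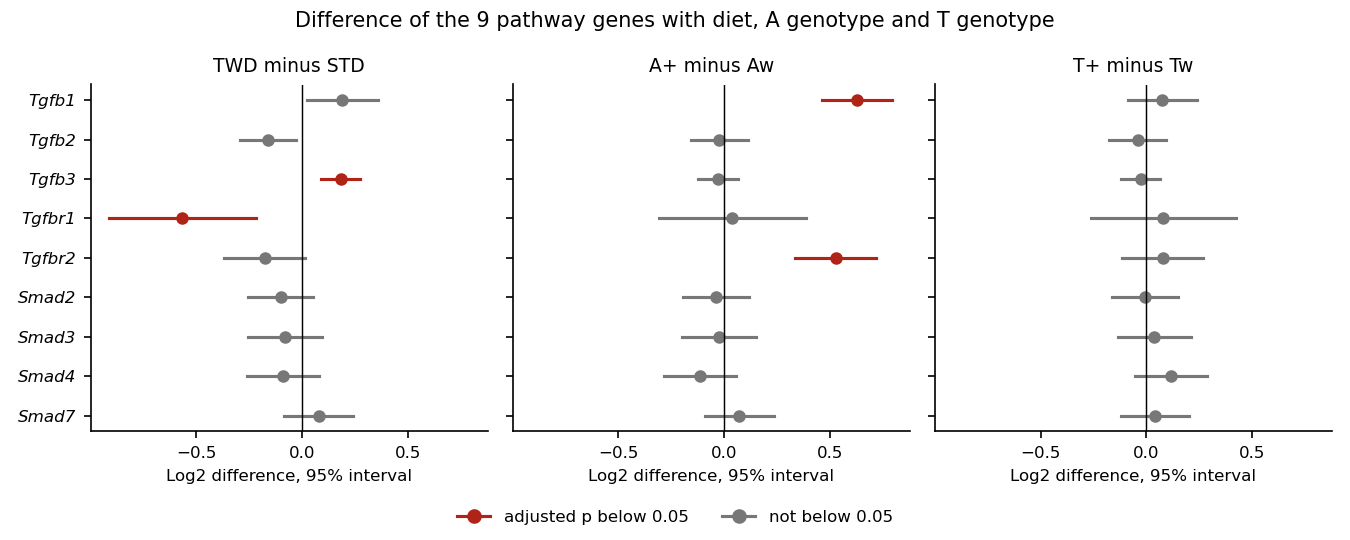
Log2 difference of each of the 9 genes between diets (left), A genotypes (middle) and T genotypes (right), with its 95% interval on the same axis. Red marks an adjusted p below 0.05: Tgfb3 and Tgfbr1 with diet, Tgfb1 and Tgfbr2 with the A genotype, and none with the T genotype.

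Microglial markers moved with the A genotype. Of the 15 microglial markers 13 were higher in A+ mice, against 3.10% of all genes, with a median difference of 0.94. The mean standardised level of the 15 ran from 0.23 to 1.28 in A+ and from -1.21 to -0.13 in Aw mice, without overlap. Their lowest value in any mouse was 5.23. Of 9 astrocyte markers only Gfap and of 8 oligodendrocyte markers 1 was called, and 0 of the 10 neuronal, 10 endothelial, 8 mural and 8 fibroblast markers were.

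Within the Aw mice, where no amyloid transgene is present, Tgfb1 followed the microglial marker level with r = 0.786 over 24 mice (permutation p = 1e-05, the smallest the permutations give, adjusted p = 4.5e-05 over 27 relations computed) and Spearman's rho = 0.767 (permutation p = 3e-05, adjusted p = 0.000162). It was 0.741 without the 2 farthest mice, 0.626 in batch 0 and 0.881 in batch 1. Within the 21 A+ mice r was 0.528 (permutation p = 0.014, adjusted p = 0.0389), rho was 0.599 (permutation p = 0.00468, adjusted p = 0.014), and r was 0.519 without the 2 farthest mice, 0.289 in batch 0 and 0.624 in batch 1. These values pool both diets, and 9 of the 15 markers were also higher on TWD. The permutations shuffled mice freely over diet, tau genotype and batch. The p values with the marker level, here and below, thus do not allow for these. Within a diet r for Tgfb1 was 0.56 (STD) and 0.764 (TWD) in 12 Aw mice each, and 0.464 in the 9 A+/STD and 0.579 in the 12 A+/TWD mice.

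The relation was not particular to Tgfb1 in Aw mice. There Tgfb3 (r = 0.765, permutation p = 1e-05, adjusted p = 4.5e-05, rho = 0.76, permutation p = 4e-05, adjusted p = 0.00018) and Smad7 (r = 0.493, permutation p = 0.0144, adjusted p = 0.0389, rho = 0.524, permutation p = 0.00904, adjusted p = 0.0244) also rose with the marker level. Tgfbr1 fell with it (r = -0.727, rho = -0.737, permutation p = 8e-05 and adjusted p = 0.000309 for both). Without the 2 farthest mice r was 0.765, 0.649 and -0.726, in batch 0 it was 0.818, -0.053 and -0.85, and in batch 1 0.822, 0.842 and -0.871, for Tgfb3, Smad7 and Tgfbr1 in turn, so the Smad7 relation was held by batch 1. Within STD it was 0.43, 0.116 and -0.366, and within TWD 0.714, 0.634 and -0.707. Within A+ mice none of these 3 passed the threshold (r = 0.289, 0.395 and -0.351, permutation p = 0.205, 0.0752 and 0.119, adjusted p = 0.292, 0.156 and 0.213, rho = 0.244, 0.369 and -0.355, permutation p = 0.285, 0.101 and 0.114, adjusted p = 0.427, 0.209 and 0.22). Tgfb1, Tgfb3, Smad7 and Tgfbr1 also followed, with the same signs, the main axis along which mice of the same group differ (the residual score, below). Over 45 mice r was 0.618, 0.713, 0.685 and -0.949. The sign of that score was set so that it rises with the microglial markers. The relations with the marker level and with the score were not separated.

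For Tgfbr2 the relation passed the threshold in neither genotype. Its r with the microglial marker level was 0.319 within A+ mice (permutation p = 0.159, adjusted p = 0.244) and -0.142 within Aw mice (permutation p = 0.509, adjusted p = 0.624), with rho of 0.171 (permutation p = 0.454, adjusted p = 0.583) and -0.092 (permutation p = 0.666, adjusted p = 0.763). Without the 2 farthest mice r was 0.4 and 0.127, and by batch it was 0.374 and -0.235 in A+ and -0.103 and -0.149 in Aw mice. The part of microglial RNA in the A genotype differences of Tgfb1 and Tgfbr2 was not tested. Markers of the choroid plexus, a secretory tissue next to the hippocampus, had a median difference of 0.86 between A+ and Aw mice with 0 of 10 called. With their mean level as a covariate the differences were 0.65 for Tgfb1 (limma, adjusted p = 3e-07) and 0.48 for Tgfbr2 (adjusted p = 0.00112).

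Set against AwTw mice on the same diet, the A genotype call held on STD and not on TWD. The comparisons on 1 diet share their AwTw mice. Tgfb1 was higher by 0.76 ± 0.166 in A+Tw/STD (limma, adjusted p = 0.00775), where 0.925% of genes were called, and this was the only pathway gene of the 9 called. It fell short without A+Tw/STD replicate 5 (0.68, adjusted p = 0.0564). In A+T+/STD it was higher by 0.87 ± 0.177 (adjusted p = 0.00314) and Tgfbr2 by 0.78 ± 0.207 (adjusted p = 0.0424), where 1.32% of genes were called, and for these 2 of the 9 genes the A+T+/STD and AwTw/STD mice did not overlap, against 4.31% of all genes. The Tgfbr2 call was lost on leaving out any of the 4 A+T+/STD mice or AwTw/STD replicate 2, 3, 4, 5 or 6, with differences from 0.68 to 0.84 and adjusted p up to 0.266.

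On TWD, Tgfb1 differed by 0.47 ± 0.160 in A+Tw (limma, unadjusted p = 0.006, adjusted p = 0.367, 0.824% of genes called) and by 0.56 ± 0.160 in A+T+ mice (unadjusted p = 0.00116, adjusted p = 0.118, 0.730% of genes called). Tgfbr2 differed by 0.35 ± 0.187 (adjusted p = 0.968) and 0.47 ± 0.187 (adjusted p = 0.488). None of the 9 genes was called on TWD. The change of the A genotype difference between the diets was tested directly: it was -0.31 ± 0.162 for Tgfb1 (limma, unadjusted p = 0.0622, adjusted p = 0.91) and -0.28 ± 0.191 for Tgfbr2 (unadjusted p = 0.147, adjusted p = 0.91), in a test added after the data were seen in which 0% of genes were called. A smaller A genotype difference on TWD was thus not shown.

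None of the 9 genes passed the threshold with the tau transgene. Over both diets and A genotypes the largest difference was 0.12 ± 0.084 for Smad4 (95% interval -0.05 to 0.29) and the smallest -0.01 ± 0.077 for Smad2 (adjusted p = 0.999 for both), where 0.0126% of all genes, 2 in number, were called. At an unadjusted p below 0.05 the count was 0 of 9. Against AwTw mice of the same diet, 0% of genes were called in AwT+ mice on STD and 0% on TWD. Smad7 had the lowest unadjusted p among the 9 on STD, with 0.27 ± 0.147 (limma, unadjusted p = 0.0717, adjusted p = 0.999), and Tgfb3 on TWD, with -0.17 ± 0.088 (unadjusted p = 0.0653, adjusted p = 0.865). The 10 choroid plexus markers had a median difference of 0.91 between T+ and Tw mice, with 0 called.

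With diet, Tgfb3 was higher and Tgfbr1 was lower on TWD over all genotypes. These are 2 of the 9 genes, below the 29.4% of all genes called with diet, of which 16.0% were higher and 13.4% lower. Tgfb3, a ligand made by several cell types of the brain, lies on chromosome 12 at 86056745 to 86079041 on the - strand, inside the span of Ttll5 on the + strand. Whether strand was used in the quantification is not given in the sources used here, so reads of the overlapping stretch cannot be assigned with certainty.

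Tgfb3 levels in AwTw mice ran from 7.80 through a median of 7.90 to 8.15 on STD and from 8.02 through 8.27 to 8.40 on TWD. In AwT+ mice they ran from 7.68 through 7.94 to 8.07 on STD and from 7.84 through 8.11 to 8.35 on TWD. The ranges overlapped in both genotypes, and the TWD medians were the higher.

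The A+ mice also had the higher Tgfb3 medians on TWD. The A+Tw/STD mice had 7.84, 8.09, 7.85, 7.93 and 7.94, and A+Tw/TWD mice ran from 7.98 through a median of 8.06 to 8.18. The A+T+/STD mice had 8.06, 8.05, 7.88 and 8.06, and A+T+/TWD mice ran from 7.80 through 8.13 to 8.25. Over all genotypes, Tgfb3 was 8.13 ± 0.157 (SD, n = 24) on TWD and 7.95 ± 0.114 (SD, n = 21) on STD, a difference of 0.18 ± 0.046 (limma, adjusted p = 0.0157), and 22 of 24 TWD mice were above the STD median of 7.94. The change of the diet difference between A+ and Aw mice was -0.13 ± 0.0945 (limma, unadjusted p = 0.185, adjusted p = 0.91, 0% of genes called), so a different diet shift in A+ mice was not shown.

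Tgfbr1, the receptor kinase that phosphorylates the Smads, lies on chromosome 4 at 47353222 to 47414931 on the + strand. In AwTw mice its levels ran from 7.12 through a median of 8.43 to 8.61 on STD and from 5.98 through 7.12 to 8.14 on TWD. In AwT+ mice they ran from 7.72 through 8.00 to 8.26 on STD and from 6.47 through 7.53 to 8.05 on TWD. The lower end of the TWD ranges reached well below the STD mice, and the upper ends overlapped.

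The A+Tw/STD mice had Tgfbr1 levels of 8.52, 6.99, 8.52, 8.21 and 7.21, and A+Tw/TWD mice ran from 6.69 through a median of 7.46 to 8.07. The A+T+/STD mice had 7.58, 7.31, 8.05 and 8.21, and A+T+/TWD mice ran from 6.36 through 7.64 to 8.40. Over all genotypes Tgfbr1 was 7.39 ± 0.614 (SD, n = 24) on TWD and 7.95 ± 0.517 (SD, n = 21) on STD, and it fell by 0.57 ± 0.173 (limma, adjusted p = 0.0195). Only 4 of 24 TWD mice were above the STD median of 8.05. Its SD within the groups reached 0.764, more than for any of the other 8 genes.

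**Figure D3:**
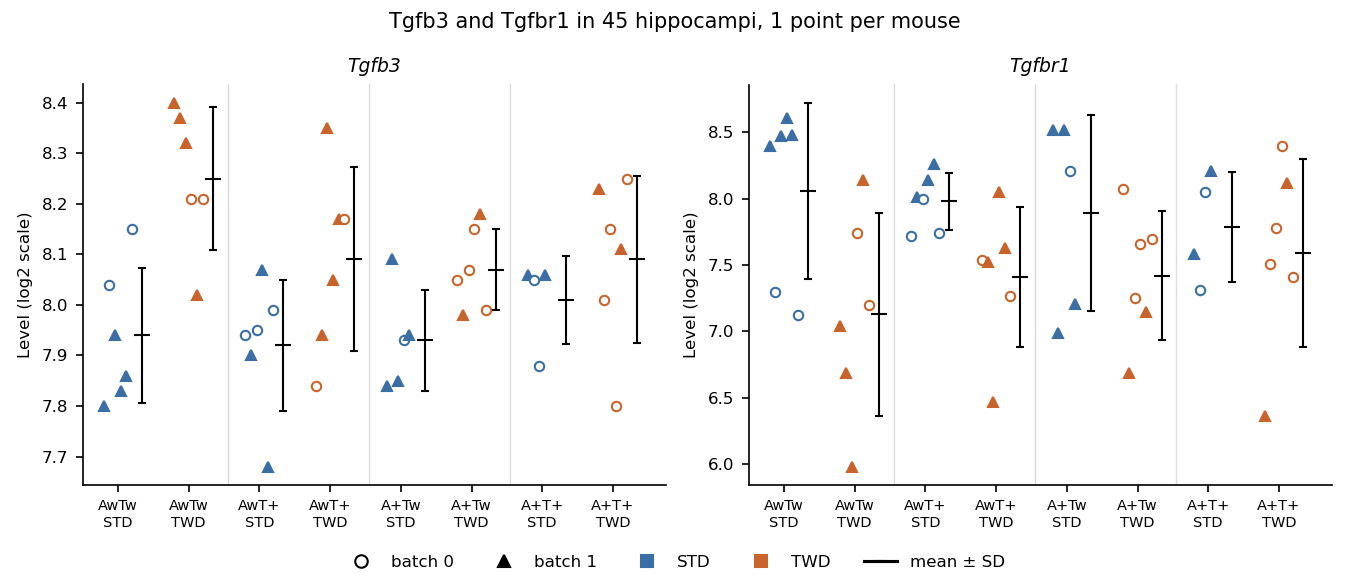
Levels of Tgfb3 (left) and Tgfbr1 (right) on the log2-like scale in the 8 groups, with 1 point per mouse (open circles batch 0, filled triangles batch 1, blue STD, orange TWD) and the mean ± SD beside each group. The TWD medians are above the STD medians for Tgfb3 and below them for Tgfbr1 in every genotype, and the ranges overlap in every genotype.

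The diet differences passed the threshold in batch 1 and not in batch 0, and the difference between the batches was not tested. In batch 1 alone they were 0.26 for Tgfb3 (limma, adjusted p = 0.0176) and -1.01 for Tgfbr1 (adjusted p = 0.0176), and Tgfb1 (0.33, adjusted p = 0.0326) and Smad7 (0.35, adjusted p = 0.0176) were called as well. That fit called 6498 of all 15897 genes, so calls were frequent in it throughout. In batch 0 alone they were 0.09 for Tgfb3 (adjusted p = 0.82) and -0.13 for Tgfbr1 (adjusted p = 0.861), with 0 of all genes called. Without the 2 mice that stood apart, Tgfb3 was at 0.17 (adjusted p = 0.0555) and Tgfbr1 at -0.43 (adjusted p = 0.0681), and 1 of all genes was called.

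A residual score, the main axis along which mice of the same group differ, also moved with diet. Its median was 0.26 in TWD and -0.51 in STD mice, with 0.85 and -0.87 in batch 1 and 0.16 and -0.16 in batch 0. Tgfbr1 followed it with r = -0.949 over 45 mice and rho = -0.939 (permutation p = 1e-05 for both, the smallest the permutations give, adjusted p = 4.5e-05 and 9e-05), with r = -0.935 without the 2 farthest mice, -0.812 in batch 0 and -0.97 in batch 1. The score is built from all genes, these 9 among them, so many genes follow it by construction. A shuffle of the mice does not allow for this, so the permutation p values with the score, here and below, are a description and not a test. The share of all genes that follow it as closely is not given here.

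Of the other genes, Tgfb3 (r = 0.713), Smad7 (0.685) and Tgfb1 (0.618) rose with the score, each with a permutation p of 1e-05 and an adjusted p of 4.5e-05. Their rho was 0.714 (permutation p = 1e-05), 0.649 (permutation p = 1e-05) and 0.601 (permutation p = 3e-05), with adjusted p from 9e-05 to 0.000162, and r without the 2 farthest mice was 0.681, 0.608 and 0.579. In batch 0 and batch 1 r was 0.689 and 0.741 for Tgfb3, -0.182 and 0.916 for Smad7, and 0.363 and 0.71 for Tgfb1, so for Smad7 the relation was held by batch 1. For Tgfbr2 no relation with the score was found (r = -0.017, permutation p = 0.914, adjusted p = 0.914, rho = -0.039, permutation p = 0.798, adjusted p = 0.862). With the score as a covariate the diet differences were 0.10 for Tgfb3 (limma, adjusted p = 0.587) and -0.05 for Tgfbr1 (adjusted p = 0.78), with 0 of all genes called, while the A genotype differences were 0.56 for Tgfb1 (adjusted p = 3.25e-09) and 0.54 for Tgfbr2 (adjusted p = 8.93e-05), and Tgfbr1 was then higher in A+ mice by 0.26 (adjusted p = 0.000372). The score keeps the group differences in each mouse's values, so with it as a covariate diet differences along it are taken out by construction. That fit therefore cannot separate diet from the score, and the Tgfbr1 call in A+ mice rests on the same fit. What the score measures was not tested.

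**Figure D4:**
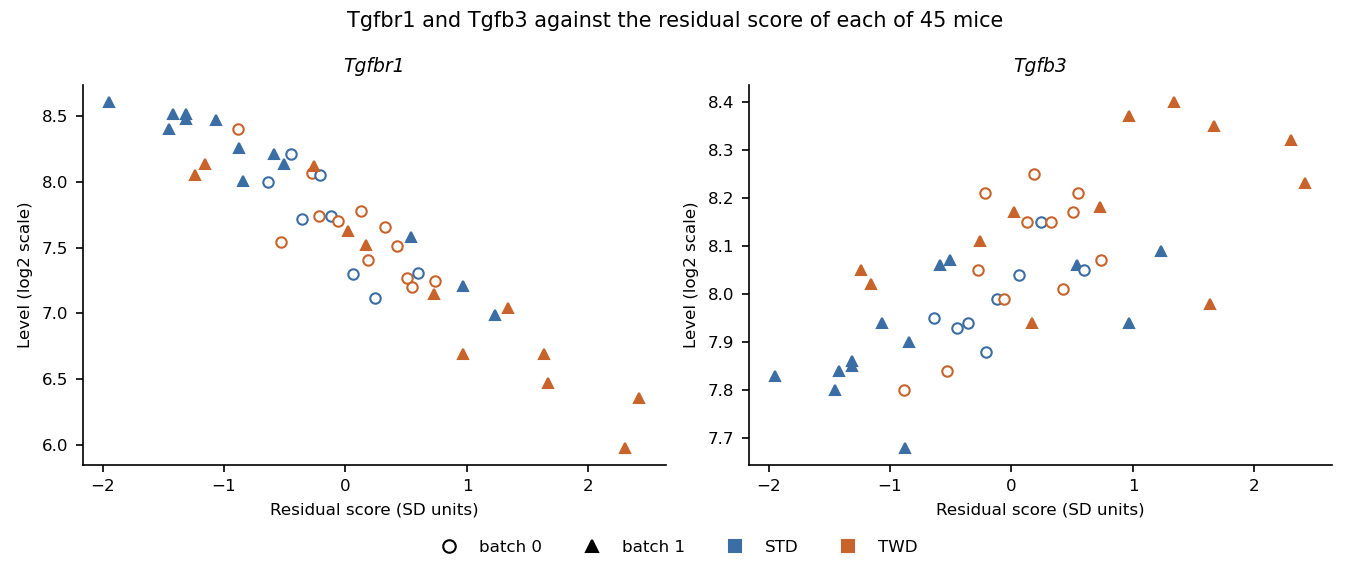
Level of Tgfbr1 (left) and Tgfb3 (right) on the log2-like scale against the residual score of each mouse in SD units (open circles batch 0, filled triangles batch 1, blue STD, orange TWD). Tgfbr1 falls along the score (r = -0.949) and Tgfb3 rises (r = 0.713), and the mice with the highest scores are TWD mice of batch 1.

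The remaining 7 genes were not called with diet. Tgfb1 was higher on TWD by 0.19 ± 0.083 (limma, adjusted p = 0.0725) and Tgfb2 lower, at -0.16 ± 0.067 (adjusted p = 0.0609), both with an unadjusted p below 0.05. Tgfbr2 was at -0.18 ± 0.095 (adjusted p = 0.144). The Smad genes lay between -0.10 and 0.08, with adjusted p from 0.306 to 0.489.

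Within single genotypes, 1 of the 9 genes passed the threshold with diet in AwTw mice and 0 in each of the others. In AwTw mice, where 9.35% of genes were called, Tgfb3 was higher on TWD by 0.32 ± 0.088 (limma, adjusted p = 0.0498), a call that held in 13 of 45 fits with a mouse left out, with differences from 0.29 to 0.37 and adjusted p up to 0.183. Smad7 (0.44 ± 0.147, adjusted p = 0.0502) and Tgfbr1 (-0.93 ± 0.334, adjusted p = 0.0538) lay just outside the threshold, and the number of the 9 genes called ran from 0 to 4 as single mice were left out. In each of the 3 transgenic genotypes 0% of genes were called. There the Tgfb3 difference was 0.17 (AwT+), 0.14 (A+Tw) and 0.08 (A+T+), and the Tgfbr1 difference was -0.56, -0.48 and -0.20. No change of the diet difference between genotypes was called for any gene.

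Smad7, the feedback inhibitor, had levels in AwTw/STD mice from 7.64 through a median of 7.88 to 8.44 and in AwTw/TWD mice from 8.15 through 8.42 to 8.67. Its STD and TWD medians were 8.23 and 8.17 in AwT+ mice, 8.44 and 8.29 with the amyloid transgene alone (A+Tw), and 8.31 and 8.24 with both transgenes (A+T+). The TWD median was the higher in AwTw mice and slightly the lower in the other genotypes, and in AwT+ mice the means were nearly equal (8.26 on STD, 8.25 on TWD). The AwTw difference depended on the processing: under 15 other settings it ran from 0.008 to 0.65 and was called in 4. Relative to AwTw, the Smad7 diet difference changed by -0.45 ± 0.208 for AwT+ (limma, unadjusted p = 0.0384), by -0.53 ± 0.216 for A+Tw (unadjusted p = 0.0192) and by -0.51 ± 0.220 for A+T+ (unadjusted p = 0.025), with adjusted p of 0.78, 0.919 and 0.56. These tests share the AwTw mice, and in all 3 of them 0% of genes were called.

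Tgfb2, Smad2, Smad3 and Smad4 were not called in any comparison. Tgfb2 lies on chromosome 1 at 186622792 to 186705989, where the antisense gene Gm29491 overlaps it, Smad3 on chromosome 9 at 63646767 to 63757994, and Smad2, Smad4 and Smad7 on chromosome 18. Over the 8 groups the mean of Tgfb2 ran from 9.32 (AwT+/TWD) to 9.64 (AwTw/STD), that of Smad2 from 8.19 (A+Tw/TWD) to 8.47 (A+T+/STD), that of Smad3 from 10.22 (AwTw/TWD and A+Tw/STD) to 10.41 (AwTw/STD) and that of Smad4 from 8.40 (A+Tw/TWD) to 8.79 (AwT+/STD). The SDs within groups ran from 0.085 to 0.338, 0.082 to 0.408, 0.080 to 0.588 and 0.098 to 0.419. The spread within the widest group was thus larger than the distance between the highest and lowest group means for each of these genes.

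**Figure D5:**
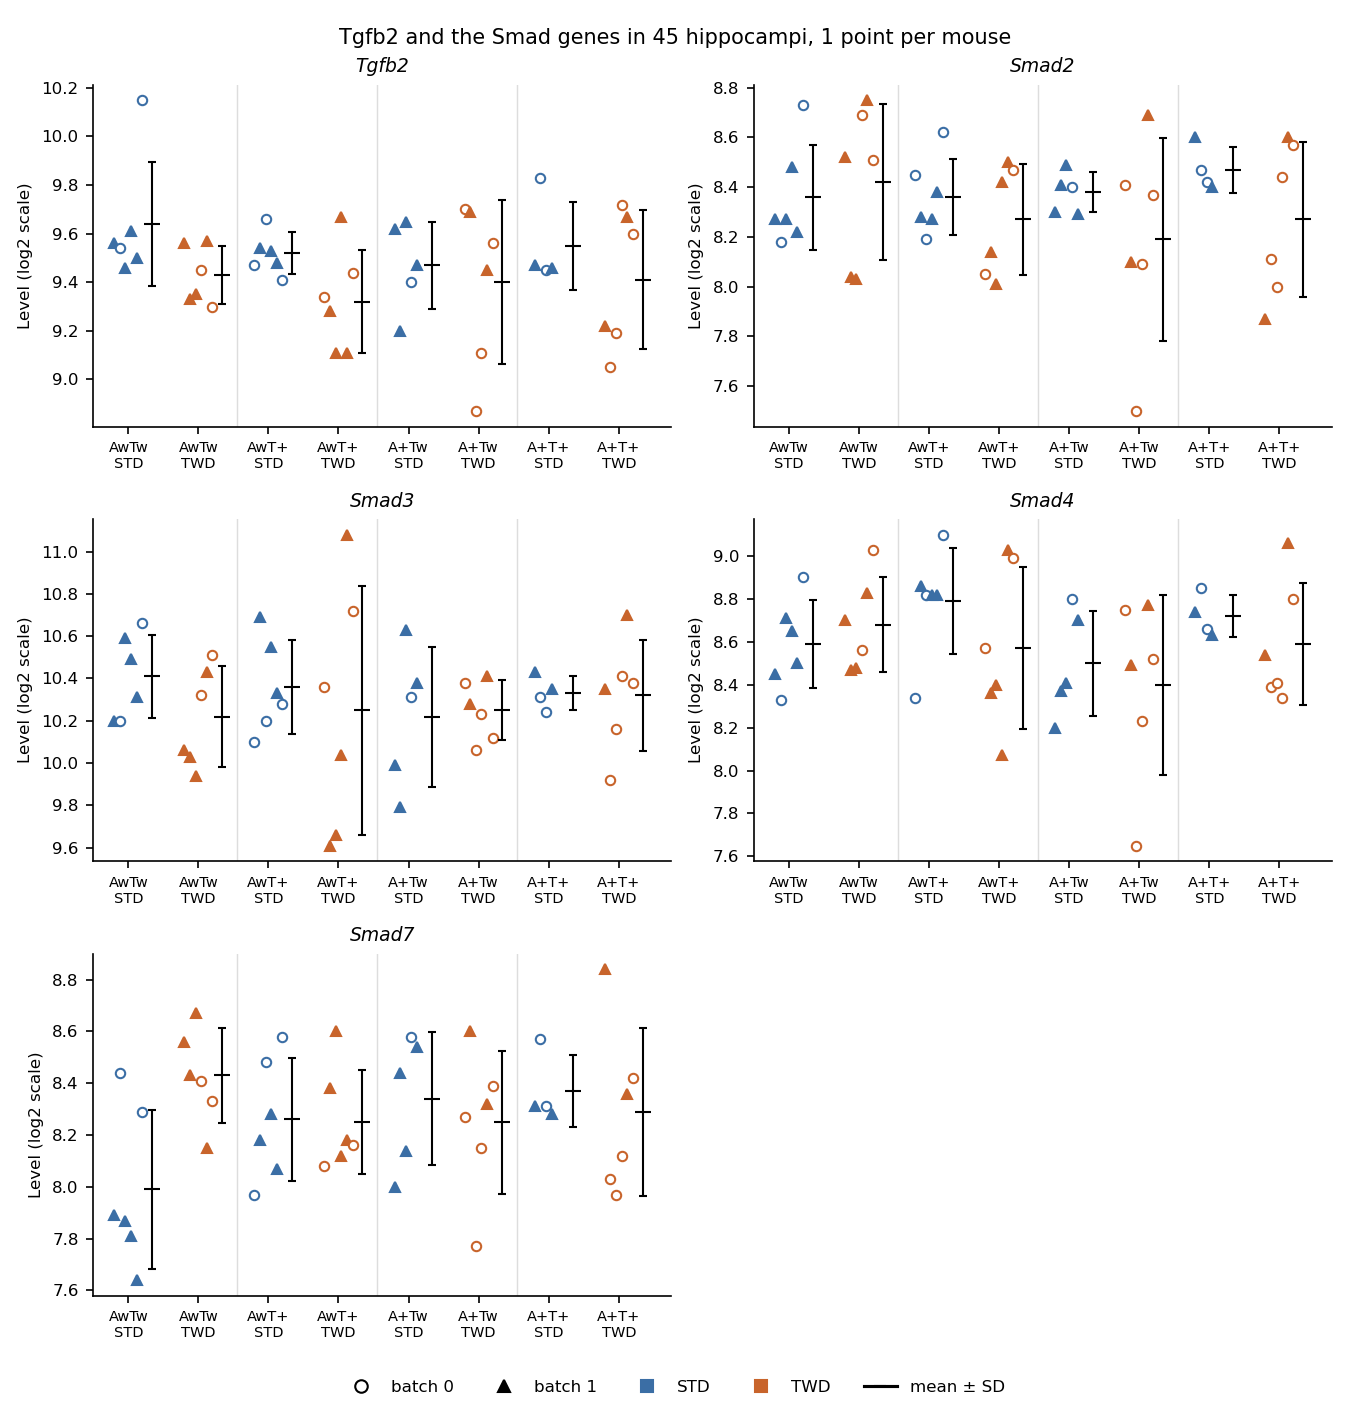
Levels of Tgfb2, Smad2, Smad3, Smad4 and Smad7 on the log2-like scale in the 8 groups, with 1 point per mouse (open circles batch 0, filled triangles batch 1, blue STD, orange TWD) and the mean ± SD beside each group. The groups overlap for every gene, and Smad7 is lowest in AwTw/STD mice, with a mean of 7.99.

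The surrounding pathway was followed through 137 further genes in 7 lists, chosen for their role but with earlier results of these data known. In A+ mice 6 were higher and 1 was lower (5.11%, against 3.78% of all genes). Of 16 genes that hold TGF-β latent or activate it, 2 were higher: the integrin subunits Itgb5 (0.61 ± 0.087, limma, adjusted p = 1.43e-06) and Itgb3 (0.44 ± 0.050, adjusted p = 4.16e-09). Among 24 Smad-level regulators Tgif1, a Smad corepressor, was higher (0.42 ± 0.064, adjusted p = 6.91e-06). Of 30 target genes 3 were higher, among them Timp1, an inhibitor of metalloproteases (0.52 ± 0.10, adjusted p = 0.000402), and Hmox1, a haem-degrading enzyme (0.26 ± 0.068, adjusted p = 0.0152). Timp1 values were low, from 4.64 to 5.75 in Aw and from 5.21 to 7.21 in A+ mice. The 7.21 was an A+T+/TWD mouse, and no other group passed 5.92. Gdf10 of the bone morphogenetic protein (BMP) branch was the only lower gene (-0.21 ± 0.053, adjusted p = 0.0115), and 0 of 21 receptor-level genes, 18 genes of the non-Smad branch and 10 of the activin and inhibin branch were called.

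Of 14 microglial genes listed here as dependent on TGF-β signalling, 7 were higher in A+ mice and none was lower, against 3.10% of all genes higher. Their median difference was 0.29 against -0.02 over all genes. Fcrls rose by 1.00 ± 0.067 (limma, adjusted p = 5.69e-16) and Olfml3 by 0.72 ± 0.064 (adjusted p = 4.95e-12), and both were also called in each of the 4 comparisons of A+ groups with AwTw mice. P2ry12 (0.07, adjusted p = 0.834), Sall1 (0.13, adjusted p = 0.409) and Mertk (0.03, adjusted p = 0.859), named after their values were seen, were not called. Of the 14, 4 are also in the microglial marker list given above. With diet over all genotypes the 14 were split, with 21.4% higher and 14.3% lower on TWD, against 16.0% and 13.4% of all genes. Against AwTw mice on the same diet, Itgb3 was called in A+Tw/STD (0.50), A+Tw/TWD (0.45) and A+T+/TWD mice (0.47) and not in A+T+/STD mice (0.33, adjusted p = 0.137). In A+Tw/STD mice Itgb5 (0.69) and Tgif1 (0.57) were called as well, and in A+T+/STD mice the called pathway genes included the ligand-binding protein Vasn (0.80) and the adaptor Shc1 (0.65).

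With diet, 16 of the 137 genes were higher and 33 lower on TWD (35.8%, against 29.4% of all genes). Of the latency and activation genes 3 were higher and 5 lower, among them Adamtsl2 (0.34 ± 0.090, limma, adjusted p = 0.0157), Tgm2 (0.36 ± 0.107, adjusted p = 0.0176) and Itgb8, the subunit of a TGF-β-activating integrin (-0.73 ± 0.223, adjusted p = 0.0194). At the receptor level 3 of 21 were higher and 4 lower, with the receptor deubiquitinase Usp4 at 0.24 ± 0.061 (adjusted p = 0.0157), the ubiquitin ligase Smurf2 at -0.35 ± 0.112 (adjusted p = 0.0227) and the co-receptor Tgfbr3 at -0.28 ± 0.090 (adjusted p = 0.0242). Among Smad-level regulators 1 of 24 was higher and 8 were lower, with the SUMO ligases Pias2 at -0.46 ± 0.128 (adjusted p = 0.0159) and Pias1 at -0.41 ± 0.128 (adjusted p = 0.0206).

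In the non-Smad branch 3 of 18 were higher and 8 lower on TWD. The phosphatase subunit Ppp2r1a was at 0.35 ± 0.083, and Tab2 and Tab3, which couple receptors to the kinase TAK1, were at -0.51 ± 0.134 and -0.65 ± 0.206 (limma, adjusted p = 0.0157, 0.0157 and 0.0216). In the BMP branch 0 of 18 were higher and 6 lower, led by Rgmb (-0.27 ± 0.076, adjusted p = 0.0166) and the receptors Bmpr1a (-0.59 ± 0.177, adjusted p = 0.0183) and Bmpr2 (-0.79 ± 0.247, adjusted p = 0.0212). The activin and inhibin list had Fstl3 higher (0.20) and Fstl1 lower (-0.14) of 10. Among the microglial markers 9 of 15 were higher and 1 lower, and among the oligodendrocyte markers 4 of 8 were higher. Of all genes 16.0% were higher and 13.4% lower. Mural markers (62.5% called, in both directions) and astrocyte markers (44.4%, mostly lower) were also called more often than all genes (29.4%). Neuronal markers were called as often as oligodendrocyte markers, with more lower than higher. Endothelial markers were called about as often as all genes, fibroblast markers less often (12.5%), and choroid plexus markers not at all.

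Of the 30 target genes 5 were higher and 1 lower on TWD (20%, against 29.4% of all genes), and 24 did not pass the threshold. The 16.7% that were higher compare with 16.0% of all genes, with a median difference of 0.14 against 0.00 over all genes. The called genes were led by Cdkn1a, a cell-cycle inhibitor (0.39 ± 0.111, limma, adjusted p = 0.0164), Gadd45b (0.26 ± 0.081, adjusted p = 0.02) and the AP-1 subunit Junb (0.34 ± 0.109, adjusted p = 0.023). Each of these genes answers to other signals as well.

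These pathway counts with diet shared the limits of Tgfb3 and Tgfbr1. In batch 0 alone, with the residual score as a covariate, and without the 2 mice that stood apart 0 of the 137 were called. Those fits called 0, 0 and 1 of all genes in turn, and the score as a covariate takes out diet differences along it by construction. In batch 1 alone 27 of the 137 were higher and 35 lower, where 6498 of all 15897 genes were called. Transcript length differed too: the longest transcript had a median of 5956 bases in the 33 lower genes, 2687 in the 16 higher and 3335 over all genes with a known length. With a trend over length and GC content removed from each mouse, 8 of the 137 were higher and 5 lower, where 2127 of all 15897 genes were called. In that fit Tgfb3 was at 0.12 (limma, adjusted p = 0.0264) and Tgfbr1, with a transcript of 5756 bases, at -0.27 (adjusted p = 0.0341). The part of length in the diet differences was not tested further.

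In AwTw mice alone 6 of the 137 were higher and 6 lower on TWD (8.76%, against 9.35% of all genes). Adamtsl2 (0.65), Junb (0.70), Itgav (-0.91), Grem1 (-0.54) and Rgmb (-0.51) were the first by adjusted p, each at 0.0498 (limma).

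The genes whose levels were most like each of the 9 over the 45 mice are given as a description, and the mice share genotype, diet and batch differences. For Tgfb1 they were C1qc (r = 0.896), Laptm5 (0.892) and C1qa (0.884), all from the microglial marker list, and for Tgfbr2 Msn (0.82), Itgam (0.819) and Gm49369 (0.817). For Tgfbr1 they were Rims2 (0.96), Cntnap5a (0.947) and Kctd12 (0.945), and for Tgfb3 Rita1 (0.812), Tut1 (0.811) and Arhgdia (0.806). Tgfb2 was most like Fli1 (0.722), Xylt1 (0.699) and Pcdhga3 (0.697). Smad2 was most like Cpe (0.8), Sstr1 (0.799) and Pcdhgc3 (0.783), Smad3 like Prkce (0.858) and Syt11 (0.82), Smad4 like Kif5c (0.894), Trappc10 (0.884) and Larp1 (0.868), and Smad7 like Bdh1 (0.845), Map3k11 (0.795) and Ddr1 (0.782). None of the 9 was among the 3 genes most like another.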

How the data were processed

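Per the labels and the study's methods, the authors used Trimmomatic 0.38 for trimming and Bowtie2 2.2.3 to discard rRNA and mitochondrial sequence, quantified mouse transcripts with kallisto 0.44.0 and summed them per gene. The deposited log2-like values are what the authors made from these with the variance-stabilizing transformation of DESeq2 1.22.2 on genes above a minimum mean count, with batch then removed by limma 3.38.3. In the table the mean of each gene is the same in both batches (20 and 25 mice), so batch was kept as a covariate in every fit. What the batches are is not given in the sources used here. No read counts were used, so the exact depth of each mouse and its counting error are unknown here and precision is the spread between mice, each a separate animal.

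Groups came from the labels. Genes were tested in limma 3.58.1 (R 4.3.3, empirical Bayes with a mean trend, two-sided), over all genes. The diet effect comes from a fit with terms for the 4 genotypes, diet and batch, the A+ and T+ effects from a fit of A, T, diet and batch, and the other contrasts from a fit of the 8 groups and batch. The code was tested on simulated data. The residual score of a mouse is the projection of its centred values on the leading principal axis of the 8-group fit's residuals. Correlations used 100000 permutations (Python 3.11.15, scipy 1.17.1). Alternatives were each batch alone, no batch term, quantile normalization, a filter on low means, no trend, only the groups compared, further covariates, other thresholds and each mouse left out; removal of a length and GC trend, leaving out the 2 mice, the A genotype by diet test and correlations within each diet were added after seeing the data.

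Symbols and coordinates are from GENCODE M21 (GRCm38) and promoters from RefSeq. The 9 genes and all lists were chosen with earlier results of these data known. Named genes are the 9 and the called list genes with the smallest adjusted p: at most 3 per list for diet and for A+ against Aw, and at most 5 per other comparison. Some genes that this rule names are not reported here.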

Additional observations from a re-analysis of the deposited data

Results flagged for a closer look

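Within each group of 4 to 6 mice, the highest and lowest level of each of the 9 genes was compared with the others by Dixon's ratio, the gap to the nearest mouse over the whole range, at its 95% critical value. Of 72 gene and group pairs 8 had a mouse past it, where chance gives about 1 in 20. A+T+/STD replicate 2 was the far mouse for 4 genes: Tgfb1 at 8.09 (the other 3 mice 7.73 to 7.78), Tgfb2 at 9.83 (9.45 to 9.47), Tgfbr2 at 9.31 (8.90 to 8.97) and Smad7 at 8.57 (8.28 to 8.31). Without it Tgfbr2 differed from AwTw/STD by 0.68 with an adjusted p of 0.266 (limma).

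Tgfb3 in A+T+/STD replicate 3 was at 7.88, below the others at 8.05 to 8.06. Tgfb2 in AwTw/STD replicate 6 was at 10.15, above the others at 9.46 to 9.61. Tgfbr2 in A+Tw/TWD replicate 3 was at 7.72, below the others at 8.47 to 8.84. Smad4 in AwT+/STD replicate 1 was at 8.34, below the others at 8.82 to 9.10.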

How the results depend on the processing

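Counts are of the 9 genes called. For diet over all genotypes (2 called) the count was 0 in batch 0 alone, with the residual score as a covariate, at a threshold of 0.01 and without the 2 mice that stood apart, 4 in batch 1 alone and at a threshold of 0.1, and 2 to 4 with single mice left out, with 4 reached without AwT+/TWD replicate 4 or AwTw/TWD replicate 5. Of all 15897 genes, 4678 were called with diet in the main fit, 6498 in batch 1 alone and 6666 at a threshold of 0.1. For A+ against Aw (2 called) it was 1 in batch 0 alone and 2 with any single mouse left out. For diet within AwTw (1 called) it was 0 in batch 0 alone, with quantile normalization, no mean trend, only the groups compared, the label prefix or the residual score as a covariate, a threshold of 0.01, the length and GC trend removed, and without the 2 mice, 3 with no batch covariate, in batch 1 alone, with genes above the 25th percentile of the mean, with the choroid plexus score as a covariate and at a threshold of 0.1, and 0 to 4 with single mice left out.

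For A+Tw/STD (1 called) the count was 0 in batch 1 alone and with only the groups compared, 2 with the length and GC trend removed, and 0 to 1 with single mice left out. For A+T+/STD (2 called) it was 0 in each batch alone, 1 with the choroid plexus score as a covariate or a threshold of 0.01, and 1 to 2 with single mice left out. For A+Tw/TWD (0 called) it was 1 with the residual score as a covariate. For A+T+/TWD (0 called) it was 1 with the residual score as a covariate and with the length and GC trend removed, and 0 to 1 with single mice left out, with 1 reached without AwTw/TWD replicate 3. The cause was not tested. The other counts kept their value within 1.5-fold.

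Tgfb1 was called in A+ mice under all 14 other settings (0.56 to 0.72), and Tgfbr2 under 13 of 14. No called value changed sign. Of values not called before or after, 19 of 364 under other settings and 11 of 1182 with a mouse left out did. No paired analysis was possible because the labels give no replicate numbers that groups share. The lack of read counts limits what can be said of genes with few reads.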
